A study of Homo sapiens with 12 samples.

Results

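The genes described here are 10 chromatin regulators that are mutated in B cell lymphoma or work in a complex with genes that are. They are the Polycomb genes EZH2, EED and SUZ12, the acetyltransferases CREBBP and EP300, the histone methyltransferase KMT2D, the demethylase KDM6A, the remodelling subunit ARID1A, the deacetylase HDAC3 and the DNA demethylation enzyme TET2. They were chosen by name from the 25369 rows of each expression table. All 10 had a row in both tables and a mean level of at least 1 FPKM in both lines, so each of them entered every test with that filter. FPKM counts fragments relative to transcript length and library size, so levels of genes of different length can be compared.

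RNA was sequenced from 2 human diffuse large B cell lymphoma lines, OCI-Ly7, labelled as germinal centre B cell-like, and TMD8, labelled as activated B cell-like. In both lines doxycycline at 20 ng/ml switched on a guide RNA against PRMT5, an enzyme that methylates arginines in histones and splicing proteins. Each line was taken at days 0, 3 and 6 of doxycycline with 2 libraries a day, which makes 6 groups and 12 libraries. The day 0 cells carried the guide without doxycycline, and the groups used here share the guide in all 12 libraries, so effects of the guide, of doxycycline and of time in culture cannot be told apart. Whether a line was a single clone, and how Cas9 was supplied, is not given in the sources used here. Nothing in the labels says that the 2 libraries of a day came from separate cultures, so p-values measure only the spread between these libraries. Days 0, 3 and 6 are those of the design text and of the sample titles and characteristics. The labels' treatment protocol differs from them, as it names 0, 2 or 3 days of doxycycline, and was not followed.

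As background, Polycomb repressive complex 2 places methyl groups on lysine 27 of histone H3 and silences genes. EZH2 is its catalytic subunit, EED binds the methylated mark and activates the enzyme, and SUZ12 holds the complex together. In germinal centre B cells EZH2 keeps cell cycle inhibitors and differentiation genes silent, and gain-of-function mutations of EZH2 recur in germinal centre lymphoma. CREBBP, EP300, KMT2D and KDM6A work on the opposite side, at enhancers: CREBBP and EP300 acetylate histone H3, KMT2D methylates lysine 4 and KDM6A removes the lysine 27 mark. HDAC3 removes the acetyl groups within the corepressor complex that the germinal centre factor BCL6 recruits. ARID1A is a subunit of the SWI/SNF nucleosome remodeller, and TET2 oxidises methylated cytosine. Losses of CREBBP, KMT2D, ARID1A and TET2 recur in B cell lymphoma.

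The promoter windows of 5 of these genes are shown because the results turn on them. At day 6 EZH2 and EED rose relative to the common shift in TMD8, and SUZ12 is their partner in the complex. EP300 had the lowest day 6 change of the 10 genes in both lines, and TET2 differed most in level between the lines. Each window runs from 250 bases before to 50 bases after the first start listed for the gene in RefSeq on GRCh38.p14, and is written 5′ to 3′ on the strand of the gene. All 10 genes matched an entry by symbol. Capitals mark motifs searched on both strands, which were the E2F letters TTTGGCGC or TTTCCCGC, the CCAAT box, and the E box letters CACGTG. The ETS letters CCGGAAG were also searched. None of the hits overlapped. The positions are EZH2 at chr7:148884242-148884541 (minus strand), EED at chr11:86244503-86244802 (plus strand), SUZ12 at chr17:31936757-31937056 (plus strand), EP300 at chr22:41092342-41092641 (plus strand) and TET2 at chr4:105145625-105145924 (plus strand).
EZH2: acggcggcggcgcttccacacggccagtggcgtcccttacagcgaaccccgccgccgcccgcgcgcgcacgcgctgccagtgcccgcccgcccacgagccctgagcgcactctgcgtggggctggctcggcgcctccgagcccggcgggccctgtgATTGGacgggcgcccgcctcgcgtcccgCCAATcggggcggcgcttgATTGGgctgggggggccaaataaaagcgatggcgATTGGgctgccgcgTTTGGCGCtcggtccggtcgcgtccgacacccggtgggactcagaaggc
EED: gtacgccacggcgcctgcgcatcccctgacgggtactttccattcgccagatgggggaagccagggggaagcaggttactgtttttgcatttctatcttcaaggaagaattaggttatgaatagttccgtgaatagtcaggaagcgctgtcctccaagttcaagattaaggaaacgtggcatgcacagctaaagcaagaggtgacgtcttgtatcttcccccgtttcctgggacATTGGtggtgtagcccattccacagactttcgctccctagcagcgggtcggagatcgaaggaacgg
SUZ12: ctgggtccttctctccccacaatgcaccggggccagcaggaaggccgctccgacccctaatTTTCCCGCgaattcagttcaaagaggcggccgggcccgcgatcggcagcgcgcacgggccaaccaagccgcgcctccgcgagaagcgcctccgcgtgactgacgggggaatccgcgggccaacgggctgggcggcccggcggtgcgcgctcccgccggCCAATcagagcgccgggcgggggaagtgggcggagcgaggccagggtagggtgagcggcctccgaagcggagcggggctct
EP300: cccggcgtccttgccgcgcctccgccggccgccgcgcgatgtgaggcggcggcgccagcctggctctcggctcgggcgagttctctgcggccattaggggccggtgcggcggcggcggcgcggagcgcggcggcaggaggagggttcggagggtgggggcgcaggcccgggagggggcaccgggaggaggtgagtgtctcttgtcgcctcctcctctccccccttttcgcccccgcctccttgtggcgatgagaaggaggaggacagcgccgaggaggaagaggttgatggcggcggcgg
TET2: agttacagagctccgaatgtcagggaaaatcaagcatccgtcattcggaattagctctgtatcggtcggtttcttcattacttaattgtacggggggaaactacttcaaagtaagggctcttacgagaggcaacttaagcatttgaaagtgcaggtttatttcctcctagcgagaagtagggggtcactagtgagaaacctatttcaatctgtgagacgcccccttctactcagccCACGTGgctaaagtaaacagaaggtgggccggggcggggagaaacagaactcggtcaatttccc

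The EZH2 window held an E2F match just after the start and 4 CCAAT boxes before it. The SUZ12 window held an E2F match and a CCAAT box, the EED window a CCAAT box, and the TET2 window an E box. The shares are given over all 27305 promoters and over the 7662 promoters of genes tested in TMD8. An E2F match stood in 2.31% of all promoters and 4.15% of those of tested genes, and in 2 of the 10 genes, EZH2 and SUZ12. A CCAAT box stood in 35.7% and 37.55%, and in 4 of the 10 genes, EZH2, EED, SUZ12 and KDM6A. An E box stood in 7.43% and 11%, and in 3 of the 10, KMT2D, KDM6A and TET2. The ETS letters stood in 10.7% and 22.03%, and in 0 of the 10. The windows of EP300, CREBBP, ARID1A and HDAC3 held none of the searched letters. A match describes letters in this window and does not show that a factor binds there.

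PRMT5 itself fell in OCI-Ly7. It stood at 37.9 and 46.9 FPKM at day 0, 29.3 and 32.1 FPKM at day 3, and 20.96 and 19.2 FPKM at day 6, a day 6 change of -1.04 (limma adjusted p = 0.0345; -0.89 and 0.0284 after scaling between libraries). In TMD8 it stood at 64.8 and 60.5 FPKM at day 0, 41.3 and 42.0 FPKM at day 3, and 49.6 and 54.7 FPKM at day 6. PRMT5 was thus lowest at day 3 in TMD8 (-0.58, adjusted p = 0.0212; -0.28 and 0.147 after scaling) and higher again at day 6 than at day 3 (0.32, adjusted p = 0.0553; 0.37 and 0.0210 after scaling). Its day 6 change against day 0 there was -0.26 (adjusted p = 0.0262), and 0.10 after scaling (adjusted p = 0.201). The scaling matters for every result below. The median log2 change over all tested genes was -0.13 in OCI-Ly7 and -0.31 in TMD8 at day 6, so most transcripts had a lower FPKM than at day 0. A log2 change is on FPKM as given unless it is said to be after scaling, which means median-ratio scaling, where values are relative to this common shift. A call means an adjusted p under 0.05 in limma on log2(FPKM + 1), adjusted over all genes tested in a line, 11016 in OCI-Ly7 and 10456 in TMD8. The share of fragments on the pre-ribosomal RNA row was worked out from its FPKM and a length of 13357 nt. It was 13.9% to 27.4% in OCI-Ly7 and 6.97% to 27.3% in TMD8, lowest in day 0 libraries. Fragments of the precursor and of mature ribosomal RNA cannot be told apart in this share. Its part in the common shift was not tested. Depth relative to the first day 0 library was roughly estimated from ratios of very low values, and it ran with day. In OCI-Ly7 it was 1.29 in the second day 0 library and 0.77 to 0.91 at days 3 and 6. In TMD8 it was 1.17 in the second day 0 library and 0.54 to 0.73 at days 3 and 6. B cell markers were present, with a summed level of 755 to 1246 FPKM in OCI-Ly7 and 472 to 654 FPKM in TMD8. Of the 8 T and NK cell markers, 2 averaged at least 1 FPKM in OCI-Ly7, led by CD4 at 1.91 FPKM, and 0 in TMD8, with sums of 2.88 to 4.12 FPKM in OCI-Ly7 and 0.668 to 1.22 FPKM in TMD8. Among them CD3D, CD3E and CD3G were each under 0.1 FPKM on average in both lines. The 6 myeloid markers summed to at most 0.362 FPKM in OCI-Ly7 and 0.383 FPKM in TMD8. Of the stromal and epithelial markers, 3 of 8 averaged at least 1 FPKM in OCI-Ly7, led by EPCAM at 4.90 FPKM, and 0 of 8 in TMD8. The subtype labels matched some markers and not others: at day 0 MME stood at 10.2 FPKM in OCI-Ly7 and at 0 in TMD8, and IRF4 at 79.9 FPKM in OCI-Ly7 and at 442 FPKM in TMD8, whereas LMO2, a germinal centre gene, stood at 0.103 FPKM in OCI-Ly7 and 32.2 FPKM in TMD8.

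The levels of the 10 genes before induction differed widely between the lines. These are values of separately made tables and were not tested against each other. EZH2 averaged 120 FPKM at day 0 in OCI-Ly7 and 42.6 FPKM in TMD8, a ratio of 2.83, and EED likewise had a ratio of 2.11. The third core subunit, SUZ12, had a ratio of 0.83. The acetyltransferases leaned the other way, with ratios of 0.55 for CREBBP and 0.36 for EP300. TET2 had the lowest ratio, 0.27, which makes its day 0 level 3.70 times as high in TMD8. KDM6A (1.83) and ARID1A (1.501) were higher in OCI-Ly7, and HDAC3 (1.115) and KMT2D (0.71) lay closer together. In OCI-Ly7 the order of levels at day 0 was EZH2, HDAC3, SUZ12, EED, ARID1A, KDM6A, EP300, CREBBP, KMT2D and TET2, and no pair of neighbours overlapped between their 2 libraries. In TMD8 it was HDAC3, EZH2, SUZ12, EP300, EED, ARID1A, TET2, CREBBP, KMT2D and KDM6A, where TET2 and CREBBP overlapped.

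**Figure D1:**
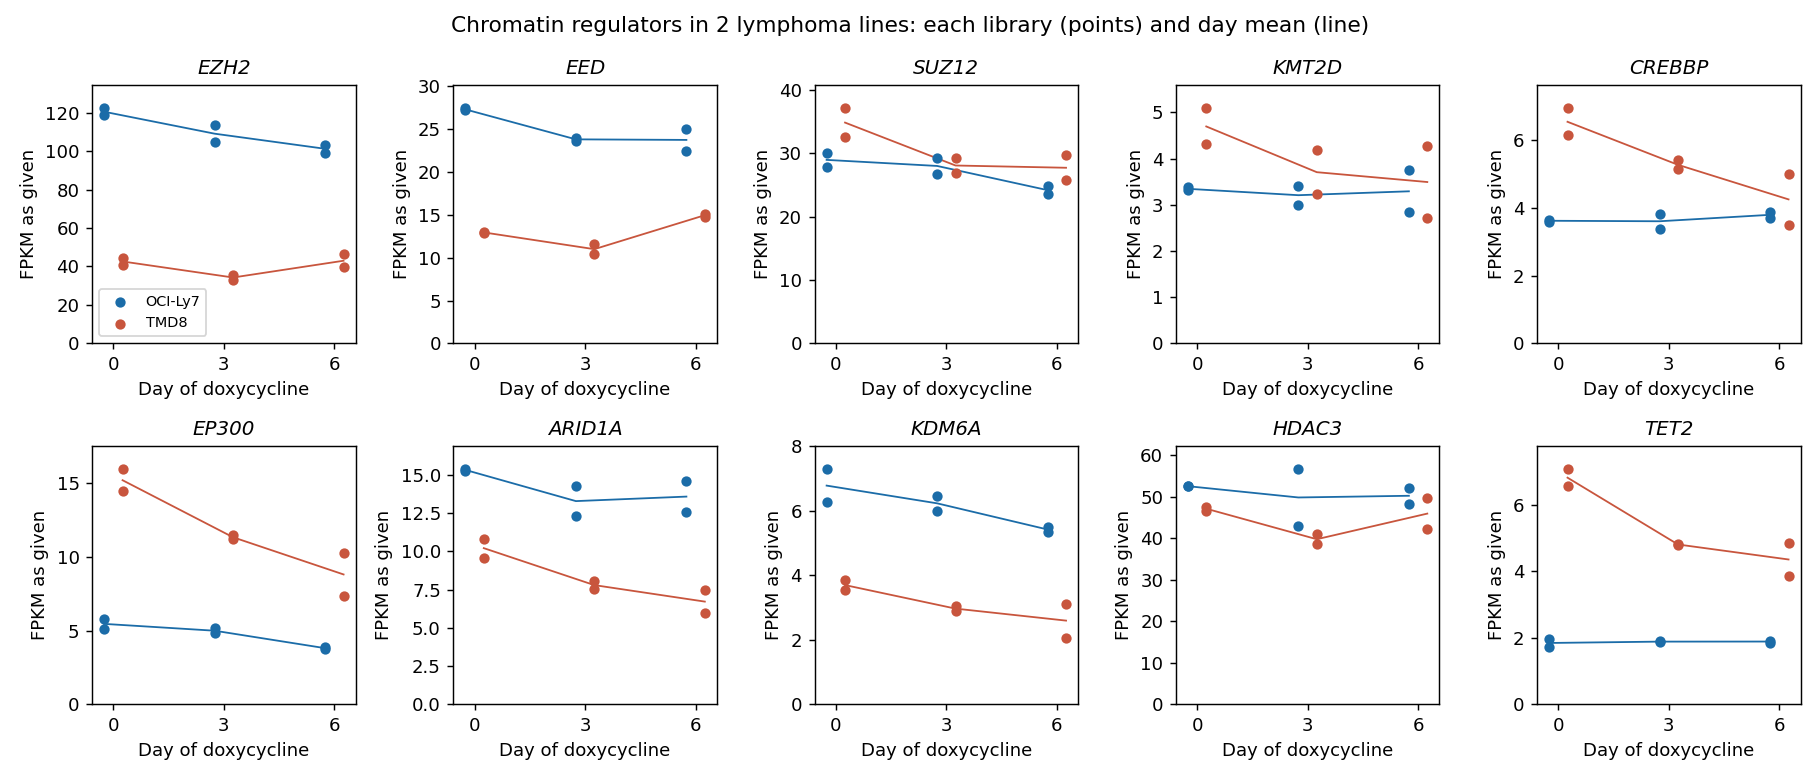
FPKM as given (vertical axis, from 0) of the 10 chromatin regulators by day of doxycycline (horizontal axis) in OCI-Ly7 (blue) and TMD8 (red). Points are single libraries, 2 for each day and line, and lines join the day means. EZH2 and EED lie higher in OCI-Ly7 at every day, EP300 and TET2 lie higher in TMD8, and the red lines of CREBBP, EP300, ARID1A and TET2 slope down.

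Among the 10 genes, none passed the test in OCI-Ly7 at day 6 against day 0, under either scaling. Of all genes tested there, 11.4% passed in either direction on FPKM as given and 14.8% after scaling. An unadjusted limma p under 0.05 was found for EZH2, SUZ12, EP300 and KDM6A on FPKM as given, all with negative values. The median over all genes was negative as well, and after scaling only EP300 had such a p. The share of all genes with such a p was not counted, here or below, so this is no result about the 10. In TMD8 at day 6, 5 of the 10 were lower and 0 higher on FPKM as given, where 51.7% of all genes tested were lower and 3.89% higher. The 5 were SUZ12, CREBBP, EP300, ARID1A and TET2, and their count is close to the share among all genes. After median-ratio scaling 0 of the 10 were lower and 3 were higher, EED, EZH2 and HDAC3, where 15.4% of all genes were higher and 13.5% lower. The median change of the 10 genes in TMD8 was -0.38 on FPKM as given, beside -0.31 over all genes, and -0.10 after scaling. In OCI-Ly7 it was -0.18, beside -0.13 over all genes, and -0.04 after scaling.

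**Figure D2:**
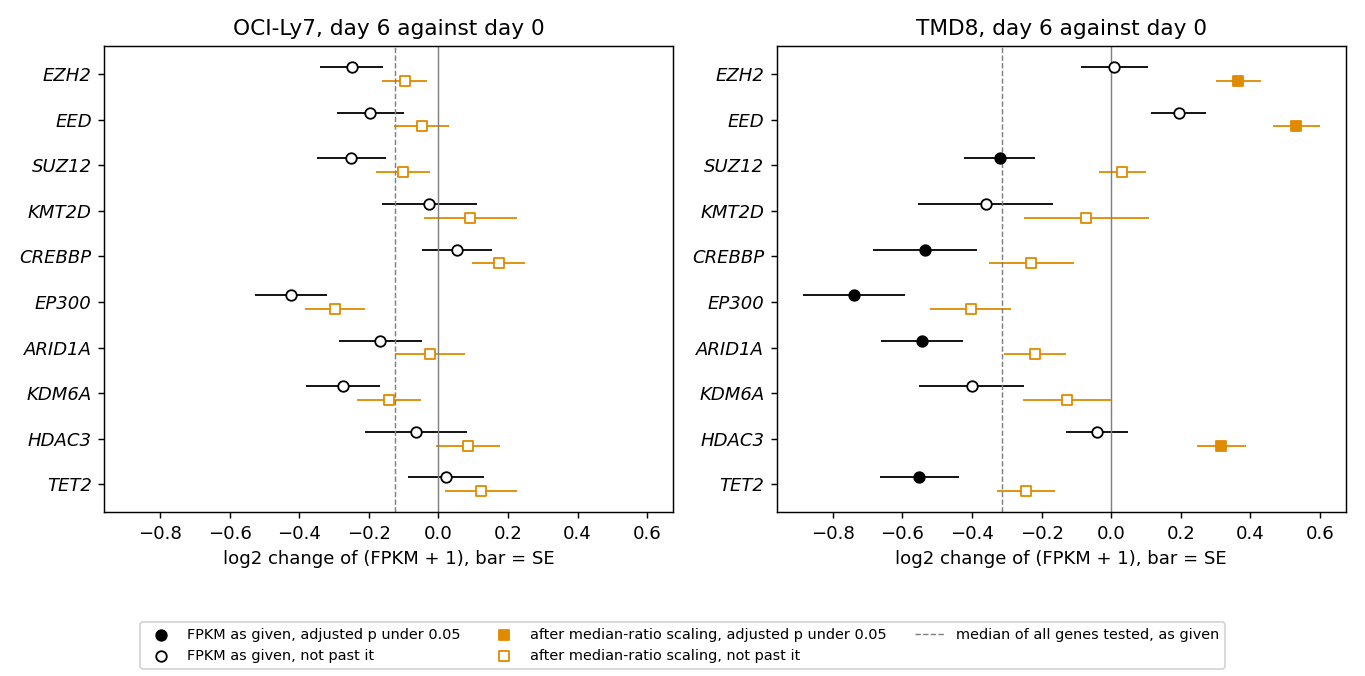
Log2 change of (FPKM + 1) at day 6 against day 0 (horizontal axis) of the 10 genes in OCI-Ly7 (left) and TMD8 (right). Black circles are FPKM as given and orange squares are median-ratio scaled. Bars are limma standard errors, with 2 libraries a day and 1 estimate of the spread shared by the 3 days of a line. Filled symbols have an adjusted p under 0.05, and the dashed line is the median of all genes on FPKM as given. In TMD8 the filled black symbols (5 genes) lie below 0 and the filled orange ones (EZH2, EED and HDAC3) above it.

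EZH2, the catalytic Polycomb subunit, had its highest values in OCI-Ly7. Its libraries there stood at 119 and 122 FPKM at day 0, 113 and 105 FPKM at day 3, and 99.1 and 103 FPKM at day 6. Both day 6 libraries lay below both day 0 libraries, but the log2 change of -0.25 (SE 0.091) did not pass (adjusted p = 0.1196), nor did -0.10 after scaling (adjusted p = 0.338). In TMD8, EZH2 stood at 44.4 and 40.8 FPKM at day 0, 35.8 and 32.8 FPKM at day 3, and 39.7 and 46.3 FPKM at day 6. The day 3 libraries were the lowest and the day 6 libraries spanned those of day 0. At day 6 the change was 0.01 (SE 0.097, adjusted p = 0.938) on FPKM as given. Relative to the common shift EZH2 rose by 0.37 (adjusted p = 0.0158). With an equal sum per library its change was 0.09 and did not pass (adjusted p = 0.509).

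EED, the subunit that reads the lysine 27 mark, was highest at day 6 in TMD8. It stood at 13.04 and 12.86 FPKM at day 0, 11.6 and 10.4 FPKM at day 3, and 14.8 and 15.1 FPKM at day 6 in TMD8. The libraries of the 3 days did not overlap, with day 3 lowest and day 6 highest. The change at day 6 against day 0 was 0.19 (SE 0.078, adjusted p = 0.0753) on FPKM as given, and 0.53 after scaling (adjusted p = 0.00827). With an equal sum per library it passed as well (0.27, adjusted p = 0.0388). In OCI-Ly7, EED stood at 27.4 and 27.2 FPKM at day 0, 23.98 and 23.63 FPKM at day 3, and 25.1 and 22.4 FPKM at day 6. All 4 treated libraries lay below day 0 there, with a day 6 change of -0.20 (adjusted p = 0.210), and -0.05 after scaling (adjusted p = 0.692), where the day 6 libraries overlapped day 0. A microRNA gene, MIR6755, lies on the same strand within an EED exon in GENCODE v29 and has its own row.

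SUZ12, the scaffold subunit, was lower in TMD8 on FPKM as given. It stood at 37.1 and 32.6 FPKM at day 0, 29.3 and 26.9 FPKM at day 3, and 25.8 and 29.7 FPKM at day 6 in TMD8. All 4 treated libraries were below both day 0 libraries, and SUZ12 fell by 0.32 (SE 0.102, adjusted p = 0.0378) on FPKM as given. After scaling the value turned to 0.03 (adjusted p = 0.738), so SUZ12 stood close to the common shift. In OCI-Ly7 it stood at 30.1 and 27.9 FPKM at day 0, 29.3 and 26.8 FPKM at day 3, and 23.6 and 24.8 FPKM at day 6 (-0.25, adjusted p = 0.143; -0.10 and 0.388 after scaling). The near-identical copy SUZ12P1 has its own row, and in OCI-Ly7 it stood at 23.6 and 17.4 FPKM at day 0, 24.1 and 20.5 FPKM at day 3, and 30.9 and 31.1 FPKM at day 6. Its day 6 libraries there were the highest, whereas those of SUZ12 were the lowest. In TMD8 the copy ranged from 2.47 to 6.08 FPKM. How fragments were split between SUZ12 and its copy is not given in the sources used here, so the SUZ12 values, their change and the ratios over SUZ12 are uncertain, in OCI-Ly7 above all.

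Ratios of transcripts within a library do not depend on a factor that is common to all genes of the library. The pairs below were picked by role after the values were seen, and the ratios are given without a test. In TMD8 the ratio of EZH2 to SUZ12 was 1.20 and 1.25 at day 0, then 1.22 and 1.22 at day 3, and it reached 1.54 and 1.56 at day 6. The day 6 libraries stood apart from the other 4, with a mean 1.27 times that of day 0. EED over SUZ12 in TMD8 was 0.352 and 0.394 at day 0, then 0.396 and 0.387 at day 3, and it reached 0.574 and 0.509 at day 6, 1.45 times the day 0 mean. In OCI-Ly7 the day 0 ratio of EZH2 to SUZ12 was 3.95 and 4.38, followed by 3.87 and 3.91 at day 3 and by 4.20 and 4.16 at day 6. Days 0 and 6 overlapped there, and they overlapped for EED over SUZ12 as well, with a day 6 mean 1.04 times that of day 0. EZH1, the less active relative of EZH2, gave a further comparison. The ratio of EZH2 to EZH1 was 15.0 and 11.9 at day 6 in TMD8, against 9.71 and 10.4 at day 0, and in OCI-Ly7 it was 13.3 and 14.5 at day 6, against 15.3 and 15.4 at day 0. The mean ratio at day 6 was thus 1.33 times that of day 0 in TMD8 and 0.91 times that of day 0 in OCI-Ly7.

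**Figure D3:**
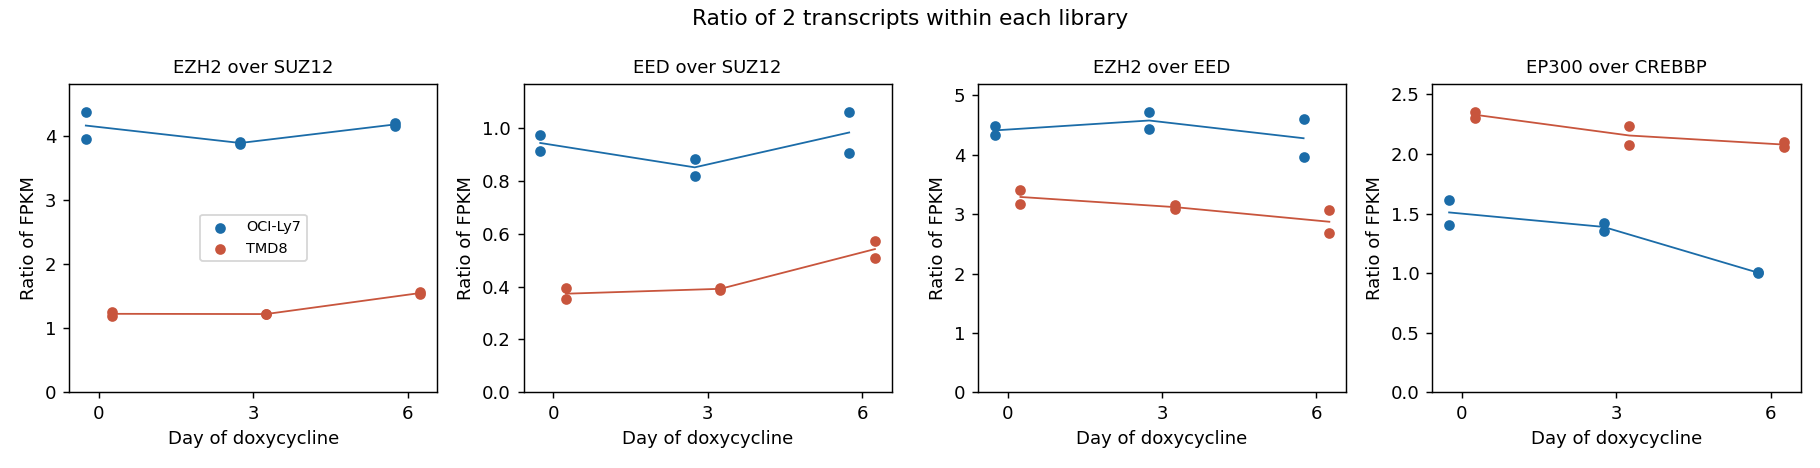
Ratio of the FPKM of 2 transcripts within each library (vertical axes, from 0) by day of doxycycline in OCI-Ly7 (blue) and TMD8 (red). Points are libraries and lines join the day means. EZH2 and EED over SUZ12 are highest at day 6 in TMD8 (1.54 and 1.56, 0.574 and 0.509), and EP300 over CREBBP is lowest at day 6 in OCI-Ly7 (1.00 and 1.01).

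EP300, the acetyltransferase also called p300, had the lowest day 6 change of the 10 genes in both lines. In OCI-Ly7 it stood at 5.10 and 5.81 FPKM at day 0, 5.15 and 4.82 FPKM at day 3, and 3.88 and 3.72 FPKM at day 6. Both day 6 libraries were below the other 4, with a change of -0.42 (SE 0.104) that did not pass (adjusted p = 0.0546; -0.30 and 0.0754 after scaling). Its TMD8 libraries stood at 15.9 and 14.5 FPKM at day 0, 11.5 and 11.2 FPKM at day 3, and 7.33 and 10.3 FPKM at day 6. The 3 days did not overlap, and EP300 fell by 0.74 (SE 0.147, adjusted p = 0.00875) on FPKM as given. After scaling the change was -0.40 (adjusted p = 0.0511). The difference between the lines in this change was 0.32 (adjusted p = 0.243), and EP300 was not shown to behave differently in them. The first day 6 library of TMD8 was lower than the second for EP300, as it was for all 10 genes.

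CREBBP, the close relative of EP300 whose mutation is a frequent event in germinal centre lymphoma, stayed near its starting level in OCI-Ly7. Its libraries there stood at 3.64 and 3.59 FPKM at day 0, 3.81 and 3.38 FPKM at day 3, and 3.89 and 3.69 FPKM at day 6 (0.05, SE 0.101, adjusted p = 0.737; 0.17 and 0.168 after scaling). TMD8 had 6.92 and 6.13 FPKM at day 0, 5.13 and 5.39 FPKM at day 3, and 3.49 and 4.997 FPKM at day 6. The days did not overlap, and CREBBP fell by 0.54 (SE 0.149, adjusted p = 0.0253) on FPKM as given, but not after scaling (-0.23, adjusted p = 0.205). The ratio of EP300 to CREBBP within an OCI-Ly7 library was 1.40 and 1.62 at day 0, then 1.35 and 1.43 at day 3, and it reached 1.00 and 1.01 at day 6. Within a TMD8 library it was 2.30 and 2.36 at day 0, then 2.23 and 2.08 at day 3, followed by 2.10 and 2.06 at day 6. The day 6 mean was 0.66 times that of day 0 in OCI-Ly7 and 0.89 times in TMD8, without overlap in either line. EP300-AS1, an antisense gene, had at most 1.34 FPKM in OCI-Ly7 and 0.402 FPKM in TMD8. Whether the counting used strand is not given in the sources used here, so reads of overlapping opposite genes cannot be told apart.

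KMT2D, the enhancer lysine 4 methyltransferase, was spread widely between libraries of a day. In OCI-Ly7 it stood at 3.32 and 3.38 FPKM at day 0, 3.42 and 3.00 FPKM at day 3, and 2.84 and 3.75 FPKM at day 6, where the day 6 libraries spanned day 0 (-0.03, adjusted p = 0.910; 0.09 and 0.651 after scaling). TMD8 had 5.09 and 4.31 FPKM at day 0, 3.23 and 4.19 FPKM at day 3, and 2.71 and 4.28 FPKM at day 6. The day 6 values lay below day 0 by a small margin in the second library, and the change of -0.36 (SE 0.194) did not pass (adjusted p = 0.155; -0.07 and 0.785 after scaling). KDM6A, the lysine 27 demethylase that sits in the KMT2D complex, stood at 6.26 and 7.28 FPKM at day 0, 6.46 and 5.98 FPKM at day 3, and 5.33 and 5.50 FPKM at day 6 in OCI-Ly7 (-0.27, adjusted p = 0.137; -0.14 and 0.318 after scaling). TMD8 had 3.86 and 3.52 FPKM at day 0, 3.04 and 2.88 FPKM at day 3, and 2.07 and 3.11 FPKM at day 6 (-0.40, SE 0.151, adjusted p = 0.0634; -0.13 and 0.480 after scaling). Day 6 lay below day 0 for KDM6A in both lines without reaching the threshold. In TMD8 both genes rest on single libraries: without the second day 6 library KDM6A (-0.61, adjusted p = 0.00887) and KMT2D (-0.61, adjusted p = 0.0257) passed, and without the first they had -0.19 and -0.11. Their relatives KMT2C and KDM6B ranged from 4.07 to 5.06 and from 3.90 to 6.25 FPKM in OCI-Ly7, and from 2.62 to 4.22 and from 1.40 to 3.05 FPKM in TMD8.

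ARID1A, the SWI/SNF subunit that binds DNA, stood at 15.3 and 15.4 FPKM at day 0, 14.3 and 12.3 FPKM at day 3, and 12.5 and 14.6 FPKM at day 6 in OCI-Ly7 (-0.17, adjusted p = 0.366; -0.02 and 0.889 after scaling). The TMD8 libraries had 10.8 and 9.58 FPKM at day 0, 7.55 and 8.03 FPKM at day 3, and 5.97 and 7.45 FPKM at day 6. The 3 days did not overlap in TMD8, and ARID1A fell by 0.54 (SE 0.118, adjusted p = 0.0115) on FPKM as given, with -0.22 after scaling (adjusted p = 0.118). Its relative ARID1B was the scarcer of the pair in both lines, at 2.34 to 3.20 FPKM in OCI-Ly7 and 2.43 to 4.64 FPKM in TMD8.

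HDAC3, the catalytic subunit of the NCOR corepressor complex, stood at 52.5 and 52.5 FPKM at day 0, 56.6 and 43.0 FPKM at day 3, and 52.2 and 48.3 FPKM at day 6 in OCI-Ly7. Its day 3 libraries spanned the others, and the day 6 change was -0.06 (SE 0.146, adjusted p = 0.779; 0.09 and 0.540 after scaling). Its TMD8 libraries stood at 47.6 and 46.6 FPKM at day 0, 38.5 and 41.0 FPKM at day 3, and 42.3 and 49.6 FPKM at day 6. The day 6 libraries spanned day 0 (-0.04, adjusted p = 0.716), and relative to the common shift HDAC3 rose by 0.32 (adjusted p = 0.0271). Exons of HDAC3, ARID1A, KMT2D and EP300 overlap genes on the other strand in GENCODE v29 that have no row of their own in the tables.

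TET2, which starts the removal of DNA methylation, was the scarcest of the 10 genes in OCI-Ly7 and stayed within the spread of its day 0 libraries there. It stood at 1.74 and 1.95 FPKM at day 0, 1.87 and 1.90 FPKM at day 3, and 1.86 and 1.92 FPKM at day 6 (0.02, SE 0.110, adjusted p = 0.902; 0.12 and 0.436 after scaling). Its TMD8 libraries stood at 7.08 and 6.57 FPKM at day 0, 4.80 and 4.82 FPKM at day 3, and 3.85 and 4.87 FPKM at day 6. All 4 treated libraries were below day 0, and TET2 fell by 0.55 (SE 0.113, adjusted p = 0.00965) at day 6 on FPKM as given, with -0.24 after scaling (adjusted p = 0.0777). TET3 was the more abundant relative in OCI-Ly7, at 3.84 to 4.58 FPKM, and stood at 2.24 to 4.11 FPKM in TMD8. TET1 stayed under 1 FPKM in every library, at up to 0.935 FPKM in OCI-Ly7 and 0.197 FPKM in TMD8. In bulk RNA, fewer cells that express a gene and less RNA per cell cannot be told apart, for TET2 or for any other gene here.

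Fewer of the 10 genes passed at day 3. In OCI-Ly7 at day 3 against day 0, 0 of the 10 genes passed, where 0.145% of all genes did, and 0 had an unadjusted p under 0.05; the changes ran from -0.20 to 0.02 and the smallest adjusted p was 0.618. In TMD8 at day 3 all 10 values were negative, from -0.43 to -0.22, beside a median of -0.27 over all genes. EZH2 fell by 0.31 (adjusted p = 0.0472) and TET2 by 0.43 (adjusted p = 0.0335), so 2 of 10 were lower, where 41.5% of all genes were. After scaling neither passed (-0.01 and -0.17), and 0.22% of all genes passed in either direction, with 0 of the 10 genes at an unadjusted p under 0.05. From day 3 to day 6 in TMD8, EED rose by 0.41 (adjusted p = 0.0341) as 1 of 10 higher genes, where 3.38% of all genes were higher. After scaling EED (0.47, adjusted p = 0.0224) and EZH2 (0.37, adjusted p = 0.0280) both rose, where 6.56% of all genes did, and EZH2 had 0.32 on FPKM as given (adjusted p = 0.0957). In OCI-Ly7, 0 of 10 passed between days 6 and 3, where 0.218% of all genes did; 1 had an unadjusted p under 0.05, and the changes ran from -0.32 to 0.06.

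The difference between the lines in the day 6 change was tested for 9688 genes. On FPKM as given 3 of the 10 genes passed, where 24.7% of all genes passed in either direction. The change of EED was lower in OCI-Ly7 than in TMD8 by 0.39 on the log2 scale (adjusted p = 0.0362). The changes of CREBBP (0.59 higher in OCI-Ly7, adjusted p = 0.0491) and TET2 (0.57 higher, adjusted p = 0.0234) leaned the other way. After median-ratio scaling EED (-0.58, adjusted p = 0.00426), EZH2 (-0.46, adjusted p = 0.00629) and TET2 (0.37, adjusted p = 0.0488) passed, where 33.1% of all genes did, and CREBBP did not (0.40, adjusted p = 0.0654). EZH2 had -0.26 on FPKM as given (adjusted p = 0.172). All 10 values ran from -0.39 to 0.59 on FPKM as given. For the day 3 change 0 of 10 passed, where 0.103% of all genes did, with 1 at an unadjusted p under 0.05.

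Leaving out single libraries showed which calls rest on few of them. On FPKM as given in TMD8 at day 6, the calls of EP300, ARID1A and TET2 ended only without the first day 0 library (-0.67, -0.46 and -0.50, with adjusted p of 0.0561, 0.0767 and 0.0671). CREBBP lost its call without the first day 0, the second day 0 or the first day 6 library (-0.46, -0.61 and -0.33). SUZ12 lost it without the first day 0, either day 3 or the first day 6 library (-0.23, -0.32, -0.32 and -0.22). After scaling, EED lost its day 6 call in TMD8 only without the first day 0 library (0.51, adjusted p = 0.061). EZH2 lost it without either day 0 library (0.39 and 0.34), and HDAC3 without either day 0 or the second day 6 library (0.29, 0.34 and 0.26). The day 3 calls of EZH2 and TET2 in TMD8 ended without any 1 library of days 0 and 3 (EZH2 -0.37 to -0.25, TET2 -0.48 to -0.38), and the call of EED between days 6 and 3 ended without any 1 of the 6 libraries (0.34 to 0.48). After scaling, the calls between days 6 and 3 ended in 5 of 6 such fits, for EED in all but that without the second day 6 library (0.41 to 0.53) and for EZH2 in all but that without the first (0.32 to 0.42). For the line difference after scaling, EED and EZH2 passed in all 12 fits that left out 1 library, whereas TET2 passed only without the second day 6 library of TMD8 (0.27 to 0.42 in the other fits). On FPKM as given EED lost that call without either OCI-Ly7 day 0, the second OCI-Ly7 day 6, either TMD8 day 0 or either TMD8 day 6 library (-0.40 to -0.31). TET2 lost it without the first OCI-Ly7 day 0, the second OCI-Ly7 day 6, either TMD8 day 0 or the first TMD8 day 6 library (0.44 to 0.62). CREBBP kept it in 3 of 12 fits, those without either OCI-Ly7 day 3 library or the second TMD8 day 6 library, and its value without the first TMD8 day 6 library was 0.38.

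The changes in TMD8 ran with transcript length. The 3 genes with the highest changes were the 3 with the shortest transcripts, HDAC3 (1959 nt), EED (2223 nt) and EZH2 (2639 nt), where length is that of the longest transcript with a RefSeq accession in GENCODE v29. SUZ12 has 4491 nt and KDM6A 5924 nt, and ARID1A, EP300, TET2, CREBBP and KMT2D have 8583, 9587, 9679, 10803 and 19419 nt. Over all TMD8 genes with a known length, the median day 6 change was -0.04 in the shortest of 10 length bins, up to 1168 nt, and -0.46 in the longest, from 7081 nt. At day 3 the medians of these bins ran only from -0.18 to -0.29, and in OCI-Ly7 at day 6 the shortest bin had -0.03, the longest -0.07, and the bins between them -0.18 to -0.12. The 2 libraries of day 6 also differed from each other with length. In OCI-Ly7 the median of first minus second was 0.10 in the shortest bin, 0.15 in the next and -0.05 in the longest, and in TMD8 it was 0.07 in the shortest and -0.17 in the longest. In an alternative chosen after these values were seen, libraries were median-ratio scaled within length bins, which sets each gene relative to genes of like length. In TMD8 at day 6, EED (0.47, adjusted p = 0.00923) and EZH2 (0.33, adjusted p = 0.0232) were then still higher, where 12.7% of all genes tested were. HDAC3 (0.23, adjusted p = 0.084) no longer passed. The long genes came close to 0, with TET2 at -0.07, CREBBP at -0.06 and ARID1A at -0.04, and EP300 at -0.22 (adjusted p = 0.118). The line difference still passed for EED (-0.48, adjusted p = 0.0092) and EZH2 (-0.38, adjusted p = 0.0217), where 31.9% of all genes did, and not for TET2 (0.15) or CREBBP (0.18). EP300 in OCI-Ly7 had -0.35 (adjusted p = 0.0514). This scaling also moved the members of the complex relative to each other, since their lengths fall in different bins. In TMD8 the day 6 change of EZH2 minus that of SUZ12 was 0.33 on FPKM as given and 0.18 within length bins, and that of EED minus SUZ12 was 0.51 and 0.32. What part length had in the changes on FPKM as given was not tested beyond this.

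**Figure D4:**
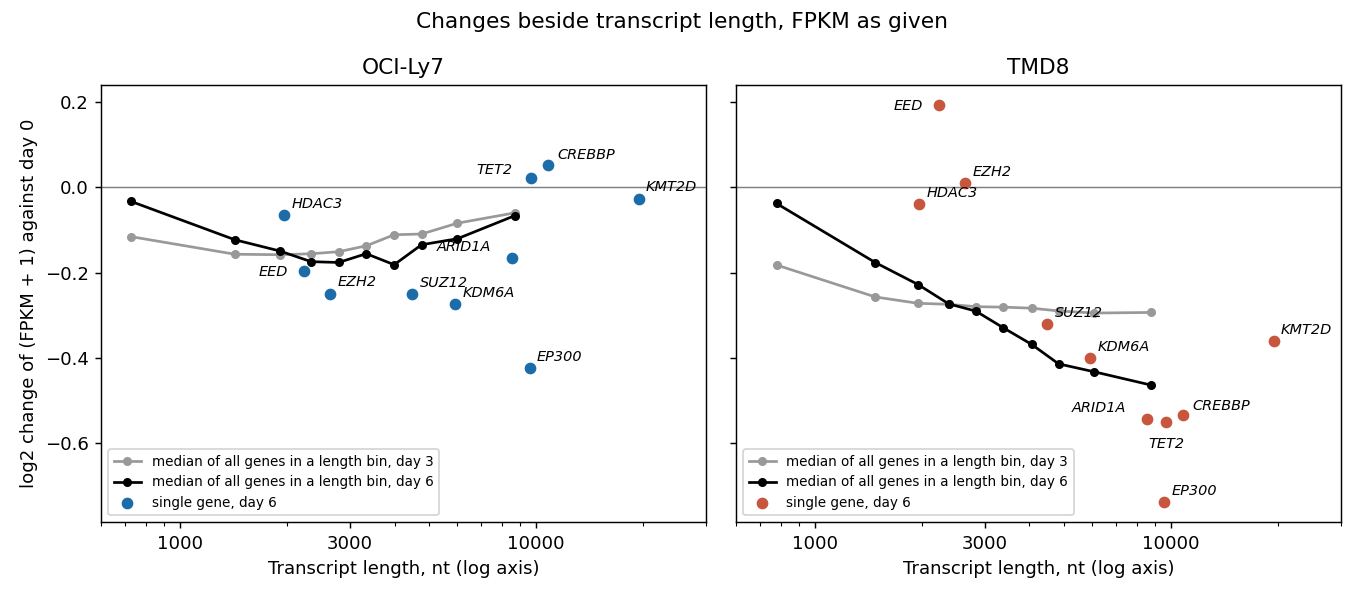
Log2 change of (FPKM + 1) against day 0 on FPKM as given (vertical axis) by transcript length in nt (horizontal log axis) in OCI-Ly7 (left) and TMD8 (right). Coloured points are the 10 genes at day 6, and lines join the medians of all genes in 10 length bins at day 3 (grey) and day 6 (black). The black TMD8 line runs from -0.04 to -0.46, with EED, EZH2 and HDAC3 farthest above it, SUZ12, KDM6A and KMT2D closer above it, EP300 farthest below, and ARID1A, CREBBP and TET2 closer below.

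Genes related to the 10 by complex or role are described by lists. Like the 10 genes, the lists were chosen with earlier results of these data known, and single libraries were not left out for them. Each named gene passed under both scalings in the same direction, and its value is on FPKM as given unless said otherwise. The shares of all tested genes to set beside the counts are, in OCI-Ly7 at day 6, 1.98% higher and 9.39% lower on FPKM as given, and 6.71% higher and 8.05% lower after scaling. In TMD8 they are 3.89% higher and 51.7% lower as given, and 15.4% and 13.5% after scaling. Of 7 measured Polycomb complex 2 partners, 1 was higher and 1 lower in OCI-Ly7 at day 6, and 0 were higher and 5 lower in TMD8 (0 and 2 after scaling), where 51.7% of all genes were lower. The median change of the partners was -0.26 in OCI-Ly7 and -0.39 in TMD8, beside -0.13 and -0.31 over all genes. RBBP7, a histone chaperone of the complex, fell in both lines, to 167 and 151 FPKM at day 6 in OCI-Ly7, against 218 and 226 FPKM at day 0 (-0.48, adjusted p = 0.0408). In TMD8 it stood at 43.3 and 39.9 FPKM at day 6, against 88.8 and 81.2 FPKM at day 0 (-1.01, and -0.66 after scaling). JARID2, which helps to recruit the complex, rose in OCI-Ly7 to 7.72 and 7.36 FPKM, against 5.13 and 4.74 FPKM at day 0 (0.53, adjusted p = 0.0401). In TMD8 JARID2 fell to 1.03 and 1.03 FPKM, against 2.27 and 2.13 FPKM at day 0 (-0.66, adjusted p = 0.00405). The difference between the lines was 1.18 (adjusted p = 0.00136), and 1.09 after scaling (adjusted p = 0.000543). Of 18 Polycomb complex 1 genes, 1 was lower and 0 higher in OCI-Ly7 (0 and 2 after scaling), and 11 were lower and 0 higher in TMD8 (1 and 1 after scaling), with medians of 0.08 and -0.36.

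A list of 16 genes held those of the KMT2 complexes and their family, with the related demethylase KDM6B. Of these, 1 was higher and 1 lower in OCI-Ly7 under both scalings. In TMD8, 0 were higher and 9 lower, where 51.7% of all genes were lower, and 0 of the list passed there after scaling. The list median was -0.08 in OCI-Ly7 and -0.37 in TMD8. RBBP5, a core subunit, fell by 1.27 in OCI-Ly7, to 1.53 and 3.17 FPKM at day 6, against 6.85 and 6.82 FPKM at day 0 (adjusted p = 0.0371). KMT2A, another methyltransferase of lysine 4, rose by 0.45 there. Of 11 acetyltransferases and bromodomain readers, 1 was lower in OCI-Ly7 and 0 higher, and 8 were lower in TMD8 (3 lower and 2 higher after scaling), with medians of -0.19 and -0.47. HAT1, which acetylates newly made histones, fell by 0.87 in OCI-Ly7, and KAT6B (-0.70), KAT7 (-0.68) and the reader BRD2 (-1.07) fell in TMD8. BRD2 was low there, at 1.97 and 2.59 FPKM at day 0 and 0.324 and 0.823 FPKM at day 6. Of 22 SWI/SNF genes, 4 were lower and 0 higher in OCI-Ly7 (3 and 0 after scaling), and 17 were lower and 0 higher in TMD8 (6 and 0 after scaling), where 51.7% of all genes were lower as given and 13.5% after scaling. Their medians were -0.27 in OCI-Ly7 and -0.44 in TMD8. SS18, a subunit of the canonical complex, fell by 1.44 in OCI-Ly7, to 10.999 and 16.2 FPKM at day 6, against 37.8 and 38.2 FPKM at day 0. It had already reached 16.3 and 13.7 FPKM at day 3. SMARCD1 (-0.64) and BCL7B (-0.51) also fell there, whereas in TMD8 the named genes were ACTB (-1.15), BCL7A (-0.75) and SMARCC1 (-0.74).

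The next list held other deacetylases and subunits of several corepressor complexes, not only that of HDAC3. In OCI-Ly7, 2 of 23 were higher and 1 lower (3 and 1 after scaling). In TMD8, 0 of 21 were higher and 17 lower (1 and 8 after scaling), where 51.7% of all genes were lower as given and 13.5% after scaling. The list medians were -0.14 in OCI-Ly7 and -0.56 in TMD8. NCOR1, the scaffold that activates HDAC3, rose in OCI-Ly7 by 0.90 (adjusted p = 0.0345), to 14.4 and 15.0 FPKM at day 6, against 7.21 and 7.59 FPKM at day 0. HDAC6, a mainly cytoplasmic deacetylase, rose in OCI-Ly7 by 0.48 and fell in TMD8 by 0.97, a difference of 1.45 (adjusted p = 0.000937), and of 1.27 after scaling (adjusted p = 0.000501). HDAC1 fell by 0.42 in OCI-Ly7, and HDAC10 (-0.82) and TBL1X (-0.77) fell in TMD8. Of 8 DNA methylation genes, 2 were lower and 0 higher in OCI-Ly7, TDG (-0.76) and IDH1 (-0.71), under both scalings. In TMD8, 5 were lower and 0 higher (2 and 1 after scaling), and the list medians were -0.11 in OCI-Ly7 and -0.55 in TMD8. Among the 5 were the de novo methyltransferase DNMT3B (-1.03) and IDH2 (-0.76).

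Of 21 other chromatin genes mutated in lymphoma, 0 passed in OCI-Ly7 on FPKM as given and 1 was higher after scaling. In TMD8, 4 were higher and 14 lower (5 and 5 after scaling), where 3.89% of all genes were higher and 51.7% lower as given, and 15.4% and 13.5% after scaling. Their medians were -0.02 in OCI-Ly7 and -0.48 in TMD8. Linker histone genes were the risers: HIST1H1B rose by 2.10 in TMD8, to 37.1 and 36.7 FPKM at day 6, against 6.40 and 9.53 FPKM at day 0 (adjusted p = 0.00196). HIST1H1D (1.74), HIST1H1E (1.47) and HIST1H1C (0.43) rose too. Of 5 measured genes that EZH2 is known to silence in germinal centre B cells, 1 was higher in OCI-Ly7, and 0 were higher and 4 lower in TMD8 (1 lower after scaling), with medians of -0.10 and -0.32. The gene that rose in OCI-Ly7 was CDKN2A, a cell cycle inhibitor, at 31.5 and 21.3 FPKM at day 6, against 7.76 and 8.95 FPKM at day 0 (1.53, adjusted p = 0.0345). Of the genes that CREBBP activates and HDAC3 with BCL6 represses, 0 of 13 passed in OCI-Ly7 (1 higher after scaling), and 2 of 10 were higher and 3 lower in TMD8 (2 and 2 after scaling), with medians of 0.01 and -0.09. CD40, a receptor for T cell help, rose in TMD8 by 0.26, whereas IRF4 (-0.70) and KLF2 (-0.78) fell. The B cell markers moved beside them: 1 of 6 was higher in OCI-Ly7 (2 after scaling), and 5 of 5 tested were lower in TMD8 (2 after scaling), where 51.7% of all genes were lower as given and 13.5% after scaling. PAX5, the B cell identity factor, rose by 0.52 in OCI-Ly7 and fell by 0.96 in TMD8, a difference of 1.48 (adjusted p = 0.00122), and CD22 fell by 1.06 in TMD8. The part of this change in B cell markers in the values of the 10 genes was not tested.

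**Figure D5:**
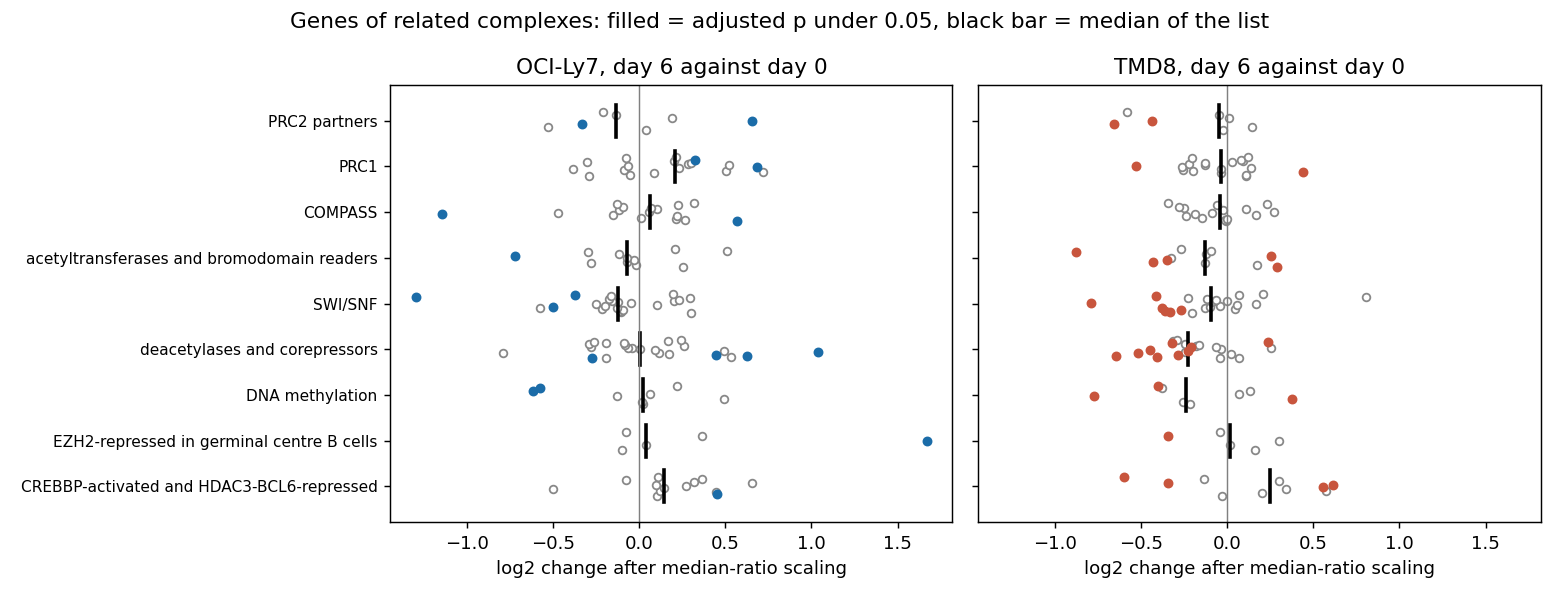
Log2 change after median-ratio scaling at day 6 against day 0 (horizontal axis) for the genes of 9 lists (rows) in OCI-Ly7 (left) and TMD8 (right). Filled points have an adjusted p under 0.05, open points do not, and black bars are list medians. CDKN2A (1.67) lies farthest right in OCI-Ly7 and SS18 (-1.29) farthest left, and 8 deacetylases and corepressors are filled on the left in TMD8.

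The genes whose course over the 12 libraries was most like that of each of the 10 were read from Pearson correlations of scaled log2 values, centred within each line, over 9688 genes. The libraries share line, day and depth, and the values are descriptions only. EZH2 was most like CCNE1, which encodes cyclin E1 (r = 0.987), and TOE1 (0.959). EED was most like POMP (0.970), the proteasome assembly factor, and SSU72 (0.969). EP300 was most like BCL9 (0.971) and ZBTB39 (0.969), CREBBP most like the lysine 4 methyltransferase SETD1B (0.932) and NCOA1 (0.925), and SUZ12 most like MBNL3 (0.940) and FMR1 (0.910). HDAC3 was most like CTRL (0.951) and REXO4 (0.944), KDM6A most like CAMSAP2 (0.929) and DAXX (0.912), and TET2 most like EEA1 (0.922) and PARP12 (0.917). ARID1A was most like GJC1 (0.917) and MARK2 (0.915), and KMT2D had the lowest best value, with CNPY4 (0.882) and CRAMP1L (0.872). Among the 10 genes, EZH2 and EED had r = 0.882 with each other, and EP300 and KDM6A had 0.870. SUZ12, the third core subunit, had 0.433 with EZH2 and 0.112 with EED. EED had r = -0.744 with ARID1A and -0.735 with CREBBP.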

How the data were processed

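Per the labels, RNA was extracted with RNeasy Plus kits and libraries were made with an Illumina TruSeq RNA kit. Per the submitters' processing notes, HISAT and StringTie were used with hg19; the sources used here give no versions. The values deposited by the authors are FPKM per library, 1 table of 25369 rows for each line. They are not counts, and absolute depth is not given. Each table holds 28 rows whose names have the form of dates, kept as they are.

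From these, log2(FPKM + 1) was tested with limma 3.58.1 in R 4.3.3, with a mean-dependent trend, keeping genes that averaged 1 FPKM or more in a line. The 3 days of a line shared 1 estimate of the spread. The difference between the lines was tested over all 12 libraries. P-values were two-sided and adjusted by Benjamini and Hochberg over all genes tested. A fold change on this scale understates that of low genes. The procedure was tested on simulated data. Levels were not tested across the 2 tables, which were made separately.

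The alternatives were median-ratio scaling, an equal sum per library, no trend, 0.1 as the pseudocount, a replicate block, filters of 0 or 5 in place of 1 mean FPKM, only the 2 compared days, and each library left out in turn. Scaling within 10 length bins, and leaving out libraries after scaling, were chosen after seeing the data. Lengths (longest GENCODE v29 transcript with a RefSeq accession) were known for 92.6% of OCI-Ly7 and 93.1% of TMD8 genes tested. Promoters came from RefSeq on GRCh38.p14; no hg19 coordinates are given.

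The members and lists were chosen with earlier results of these data known. From each list, at most 3 genes a line were named: those with the largest day 6 change among genes past the threshold under both scalings in 1 direction. HIST1H1C, EZH1 and other relatives were named in addition. A gene that this rule names is not reported here.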

Additional observations from a re-analysis of the deposited data

Results flagged for a closer look

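These results were picked out because the day 6 change, tested as a difference between OCI-Ly7 and TMD8 in limma, differed between the lines. On FPKM as given they were EED at -0.39, CREBBP at 0.59 and TET2 at 0.57, all OCI-Ly7 minus TMD8 on the log2 scale. That is 3 of the 10 genes, where 24.7% of all genes passed in either direction. After median-ratio scaling they were EED at -0.58, EZH2 at -0.46 and TET2 at 0.37, again 3 of the 10, where 33.1% of all genes passed. Both counts are close to the share among all genes. With scaling within length bins TET2 (0.15) and CREBBP (0.18) did not pass. For EED on FPKM as given, both libraries of OCI-Ly7 day 6 lay below day 0 and both libraries of TMD8 day 6 lay above it. After scaling the OCI-Ly7 libraries overlapped, with 25.5 and 23.7 FPKM at day 6, against 25.6 and 25.3 FPKM at day 0, and those of TMD8 stayed apart. For TET2 and CREBBP, both day 6 libraries of TMD8 lay below day 0 under both scalings, and those of OCI-Ly7 lay above day 0 except for TET2 on FPKM as given, where they overlapped. With 2 libraries in each group, no single library could be checked for standing apart from its group.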

How the results depend on the processing

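The counts of called genes among the 10 moved with the processing, and where a call ended the cause was not tested. For settings without a share of all genes given above, that share was not counted. Their counts show only that calls moved and are no result about the 10 genes. In TMD8 at day 3 against day 0 the count was 2, both lower, and 0 after median-ratio scaling, with an equal sum per library, without a filter, with the replicate block and with scaling within length bins; it was 4 at a mean FPKM of at least 5 (fewer genes tested, among them 8 of the 10), 1 without the trend and 6 with the 2 compared days alone. In TMD8 at day 6 it was 5, all lower, and 3 after median-ratio scaling and 2 within length bins, all higher. There it was 3 without a filter, all lower, and 4 with an equal sum per library, of which 3 were lower and EED was higher (0.27, adjusted p = 0.0388; 0.19 and 0.0753 on FPKM as given). In TMD8 between days 6 and 3 it was 1, and 2 after median-ratio scaling and within length bins, and 0 with an equal sum, without a filter, with the replicate block and with 2 days alone. For the day 6 difference between the lines it was 3, and 1 at a mean FPKM of at least 5 and 1 with the replicate block. Without single libraries these counts ran from 0 to 6, 0 to 7, 0 to 1 and 0 to 3; every OCI-Ly7 count and the day 3 difference stayed at 0.

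Values near 0 changed sign. In OCI-Ly7 at day 6, KMT2D was 0.092 after median-ratio scaling, 0.055 with an equal sum, 0.038 within length bins and from -0.18 to 0.13 without single libraries; HDAC3 was 0.086, 0.038 and 0.11 under these 3 scalings, and TET2 ran from -0.033 to 0.078 without single libraries. In TMD8 at day 6, EZH2 ran from -0.099 to 0.12 without single libraries, SUZ12 was 0.033 after median-ratio scaling and 0.15 within length bins, KMT2D was 0.090 within length bins, and HDAC3 was 0.32, 0.040 and 0.23 under the 3 scalings and from -0.15 to 0.072 without single libraries. Deviations of libraries with the same replicate number correlated weakly (from -0.15 to 0.13). With 2 libraries a day this cannot show whether the numbers pair them, and the replicate block was run as an alternative. The depth behind low values is unknown, and 2 libraries a day limit every error given.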
